A study of Mus musculus with 16 samples.

Results

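The potassium channel genes of the mouse brain were examined in cortex and striatum by Iso-seq, a PacBio method that reads whole cDNA molecules. Members were all annotated genes whose symbol begins with Kcn, apart from the Kv channel interacting proteins Kcnip1 to Kcnip4, with at least 1 read over the 16 samples. This gave 82 genes out of 21627 known genes with a read, and they cover 11 families of channel subunits plus 4 antisense genes that carry the symbol of a channel gene but encode no subunit. The samples came from 3-month-old male mice. R6/2 mice (B6CBA background) carry a transgene that expresses exon 1 of human HTT with an expanded CAG repeat (the mHTT fragment), and non-transgenic (NT) mice served as controls. The left hemisphere was used, and 4 mice of each genotype were measured in each region, which gave 4 groups: cortex NT, cortex R6/2, striatum NT and striatum R6/2. Both genotypes keep their own Htt alleles, so R6/2 mice model the added fragment and not a mutation of the mouse gene.

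Potassium channels let K+ leave or enter a neuron along its gradient and so set the resting potential, end the action potential and limit how fast a neuron can fire. Voltage-gated (Kv) channels open on depolarization, calcium-activated channels open when calcium rises, inward rectifiers (Kir) hold the resting potential and couple to G proteins or to ATP, and two-pore domain (K2P) channels carry background leak. Most pore-forming subunits carry 1 selectivity filter, the stretch that strips water from K+, and K2P subunits carry 2. Auxiliary subunits form no pore and alter the gating, trafficking or inactivation of the subunits they join. In the striatum, potassium currents hold spiny projection neurons at a very negative resting potential.

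The filter is the sequence that the family is known by, so the coding sequences of the members were searched for it. The filter signature searched was 5 codons in a row: any threonine codon, any codon with T as its middle base, any glycine codon, any codon that starts with T (tyrosine and phenylalanine among others) and any glycine codon. It was searched in frame and on the coding strand of the longest coding sequence of each gene. Of 68 pore-forming members, 55 held a match, against 0 of 10 other members and 0.870% of 21489 protein-coding genes. Among 12 K2P members, 9 held 2 matches and 1 held a single match. The 13 pore-forming members without a match were Kcnh1, Kcnh2, Kcnh3, Kcnh4, Kcnh6, Kcnh7, Kcnh8, Kcnj14, Kcnk1, Kcnk7, Kcnn1, Kcnn2 and Kcnn3. The windows below come from members that differed between genotypes or regions in the comparisons that follow, with the matched bases in capitals and 12 coding bases at each side, 5′ to 3′ on the coding strand (GENCODE M21, mm10).
Kcna1 (Kv1.1): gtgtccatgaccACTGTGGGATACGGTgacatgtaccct
Kcnc1 (Kv3.1): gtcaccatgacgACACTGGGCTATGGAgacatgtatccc
Kcnma1 (BK): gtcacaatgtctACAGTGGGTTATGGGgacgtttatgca
Kcnt1 (Slack): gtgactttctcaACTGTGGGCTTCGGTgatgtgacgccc
Kcnj9 (Kir3.3): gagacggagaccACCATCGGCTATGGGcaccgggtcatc
Kcnk4 (TRAAK), the later match: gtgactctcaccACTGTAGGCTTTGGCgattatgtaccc
Kcnk2 (TREK-1), the later match: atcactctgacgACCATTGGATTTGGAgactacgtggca
The matched bases lie in a coding exon at chr6:126642228-126642242 (minus strand) for Kcna1, chr7:46427973-46427987 (plus strand) for Kcnc1, chr14:23528413-23528427 (minus strand) for Kcnma1 and chr2:25894367-25894381 (plus strand) for Kcnt1. For Kcnj9 they lie at chr1:172326184-172326198 (minus strand), for Kcnk4 at chr19:6927631-6927645 (minus strand) and for Kcnk2 at chr1:189256581-189256595 (minus strand).

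A read here is the consensus of 1 amplified cDNA molecule, which the authors assigned to an isoform of a gene. Without molecular tags, PCR copies of a cDNA count as separate reads. Gene reads are the sum over known isoforms, incomplete splice matches (ISM, which match only part of the annotated junctions), NIC isoforms (annotated splice sites in a new combination) and NNC isoforms (at least 1 unannotated splice site). Levels are counts per 1000000 of these reads (CPM) after TMM scaling over the 16 samples. Samples had between 252885 and 1496196 reads. In the striatum, 4 samples were deposited as 2 sets of counts each (NT 1, NT 2, R6/2 2 and R6/2 3) and were summed, and these libraries had longer isoforms on average (2125 to 2197 nt) than the 4 striatal libraries with 1 set (1589 to 1840 nt). The number of sets was therefore a term in every fit that includes the striatum, and where it matters a value is also given within libraries of 1 kind. As a check of the dissections, 11 of 11 marker genes of striatal projection neurons were higher in NT striatum than in NT cortex, and 4 of 5 tested markers of cortical excitatory neurons were lower.

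Channel genes were read at low depth. The 82 members had 14398 reads in all, with a median of 58.5 reads per member over the 16 samples. A total of 30 members had at least 100 reads, 27 had fewer than 20, and 29 had a read in all 16 libraries. The members with most reads were Kcnk1 (2170), which encodes the K2P channel TWIK-1, Kcnab1 (2053) and Kcnab2 (893), which encode the auxiliary subunits Kvβ1 and Kvβ2, and Kcna1 (1287), which encodes the Kv1.1 pore. Those 4 genes held 44.5% of all member reads. Kcnc1 (652), Kcnj9 (580), Kcnv1 (571), Kcnk2 (457), Kcnq1ot1 (419) and Kcnh1 (357) followed. Only 27 members passed the filter on low counts in at least 1 comparison, so the comparisons below do not speak for the other members, among them all members of the Kv2, Kv4 and Kv7 families.

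In the cortex, 4 channel genes were lower in R6/2 than in NT mice and 1 noncoding gene was higher. The lower genes were Kcna1, Kcnc1, Kcnma1 and Kcnk4, which encode a Kv1 channel of axons, the Kv3 channel of fast-spiking neurons, the calcium-activated BK channel and a K2P leak channel gated by stretch. The higher gene was Kcnq1ot1, a long noncoding RNA transcribed antisense to Kcnq1 and known for imprinting of its cluster. These 5 were called among 20 members tested (edgeR quasi-likelihood test, adjusted p under 0.05). Over all 6121 genes tested, 2.76% were called lower and 0.457% higher. Of the 20 members, 18 had a negative log2 fold change and their median was -0.68, beside 48.0% of all genes and a median of 0.02. In CPM, all R6/2 cortices lay below all NT cortices in 6 members and above them in 1, beside 6.44% and 3.61% of all genes. In bulk tissue, fewer cells of a type and less RNA per cell cannot be told apart.

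Kcna1 (ENSMUSG00000047976) encodes Kv1.1, which opens near threshold and restrains firing along axons. It stood at 189, 207, 199.9 and 205 CPM in the 4 NT cortices and at 84.2, 91.7, 84.5 and 101 CPM in the 4 R6/2 cortices. All R6/2 cortices lay below all NT cortices, and each group was tight. The mean fell from 200.2 ± 7.83 to 90.4 ± 8.09 CPM (SD, n = 4), a log2 fold change of -1.14 ± 0.17 (SE), with an edgeR adjusted p of 0.000441.

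Kcnc1 (ENSMUSG00000058975) encodes Kv3.1, which repolarizes fast-spiking interneurons quickly enough for high firing rates. Its levels were 141, 108, 92.6 and 135 CPM in NT cortex and 34.8, 63.2, 65.1 and 53.0 CPM in R6/2 cortex. The groups did not overlap, and the log2 fold change was -1.14 ± 0.22 (edgeR adjusted p = 0.00532). The related Kv3.2 gene Kcnc2 had 36.9 ± 18.8 CPM in NT and 32.1 ± 3.74 CPM in R6/2 cortex (SD, n = 4), with a log2 fold change of -0.06 and a 95% interval from -0.70 to 0.58. Over the 16 samples, 119 of the 179 Kcnc2 reads were ISM and 0 were of a known isoform. For Kcnc1, 609 of 652 reads were of known isoforms.

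Kcnma1 (ENSMUSG00000063142) encodes the BK pore, which opens with both voltage and calcium. NT cortices gave 62.2, 40.9, 68.3 and 46.4 CPM and R6/2 cortices 27.5, 16.3, 27.7 and 18.4 CPM, again without overlap. The log2 fold change was -1.16 ± 0.28 (edgeR adjusted p = 0.0252). This gene rests on reads that do not span the whole transcript. Of its 228 reads 202 were ISM and 1 was of a known isoform. The call was lost when reads of the genomic class (a further class of TALON, taken up further on) were added (-0.79), in 1 fit of all 16 samples (-1.18, edgeR adjusted p = 0.0691), and without R6/2 2, R6/2 3 or R6/2 4 (-1.29 to -1.04). Its auxiliary subunit gene Kcnmb4 stood at 24.0 ± 14.8 CPM in NT and 27.2 ± 7.80 CPM in R6/2 cortex (SD, n = 4), with an interval of the log2 fold change from -0.47 to 1.15.

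Kcnk4 (ENSMUSG00000024957) encodes TRAAK, a K2P channel of neurons that responds to stretch and lipids. It had 10, 10, 5 and 18 reads in the NT cortices, or 27.05, 21.5, 24.4 and 34.8 CPM. The R6/2 cortices had 2, 1, 5 and 3 reads, or 3.66, 2.04, 6.92 and 6.92 CPM. The lowest NT value was well above the highest R6/2 value, and the log2 fold change of -2.39 ± 0.41 was the largest of the tested members in the cortex (edgeR adjusted p = 0.00192).

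Kcnq1ot1 (ENSMUSG00000101609) moved the other way. It stood at 27.05, 25.8, 29.3 and 42.6 CPM in NT cortex and at 60.4, 91.7, 58.1 and 76.1 CPM in R6/2 cortex. Every R6/2 cortex was above every NT cortex, with a log2 fold change of 1.15 ± 0.26 (edgeR adjusted p = 0.0160). Nearly all of its known, NIC and NNC reads (398 of 402) were assigned to a single-exon isoform annotated at 84395 nt. Isoforms averaged 1589 to 2197 nt over the libraries, and the counts do not show how much of this isoform a read covered. Reads were oriented by their poly(A) tail, and Kcnq1 on the opposite strand had 1 gene read and 81 reads of the genomic class. The call was lost without NT 2 (log2 fold change 1.05), without R6/2 2 (1.01) and without ISM isoforms (1.02).

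**Figure D1:**
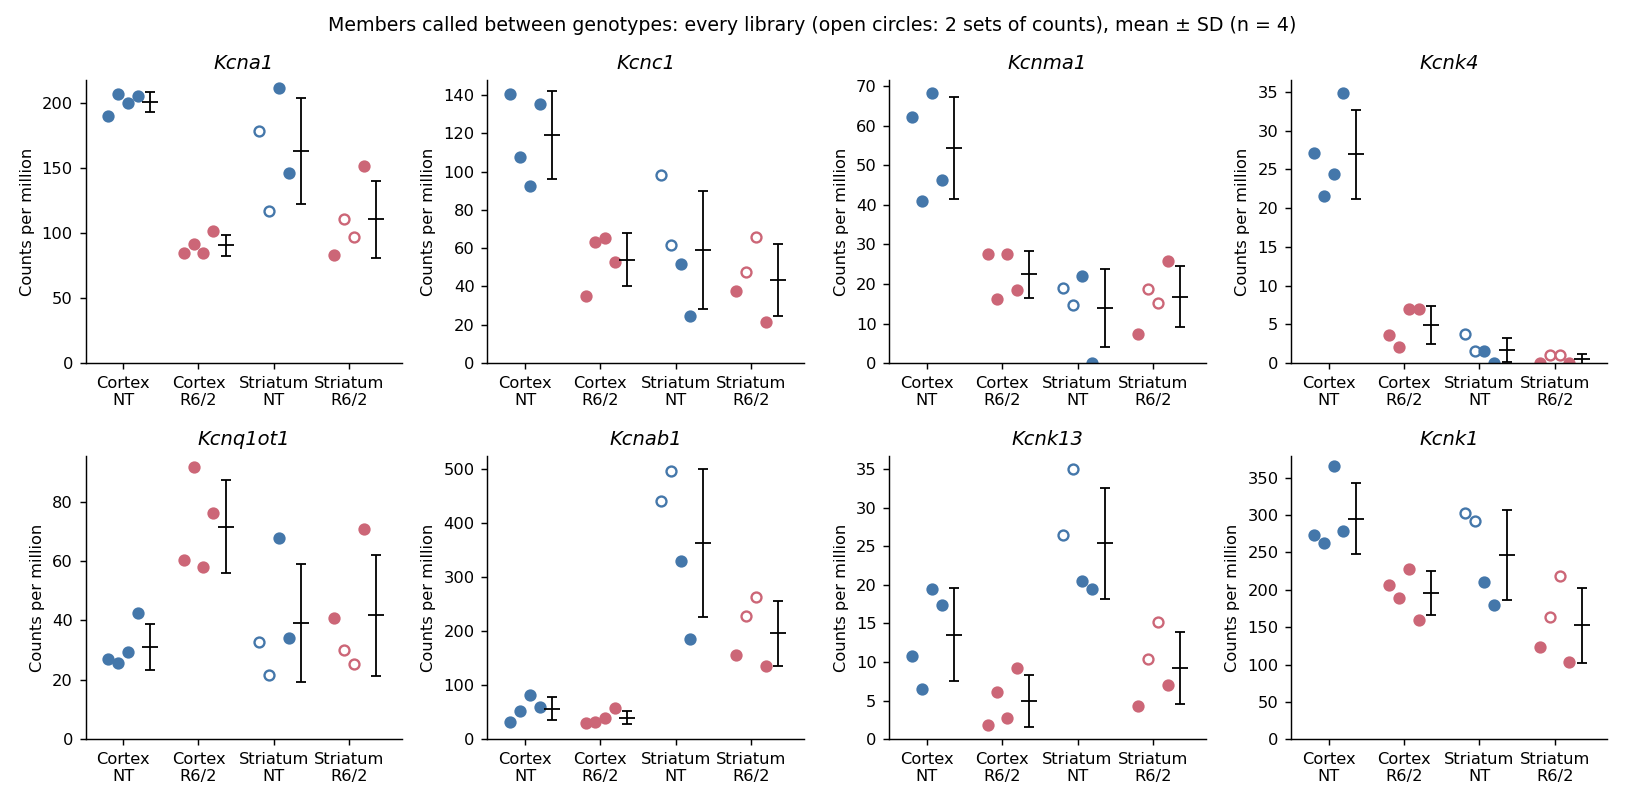
CPM (linear axis from 0) of the 8 members called between genotypes, for each of the 16 libraries by group. Filled circles are libraries with 1 set of counts and open circles striatal libraries with 2, and bars give the mean ± SD (n = 4). Kcna1, Kcnc1, Kcnma1, Kcnk4, Kcnk1 and Kcnq1ot1 separate the genotypes in the cortex, and Kcnk13 does so in the striatum, where R6/2 libraries reach at most 15.2 CPM. Over all genes tested, 6.44% lay wholly below and 3.61% wholly above NT in R6/2 cortex, and 4.28% and 1.82% in R6/2 striatum.

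Among the other deep members, the cortical differences did not pass the threshold. The log2 fold change was -0.65 for Kcnj9, a G protein-gated inward rectifier subunit (edgeR adjusted p = 0.0854), -0.93 for Kcnh1, the EAG1 channel (adjusted p = 0.0997), -0.55 for Kcnk1 (adjusted p = 0.118) and -0.71 for Kcnv1, a silent subunit that alters Kv2 channels (adjusted p = 0.131). For Kcnj9 the R6/2 cortices stood between 75.1 and 108 CPM and the NT cortices between 111 and 155 CPM, which just avoids overlap. The Kcnk1 groups did not overlap either, with 159 to 228 CPM in R6/2 and 263 to 366 CPM in NT cortices. Kcnab1 and Kcnab2 had intervals that include 0 (from -1.02 to 0.15 and from -0.92 to 0.20). At an unadjusted p under 0.05 the count was 12 of 20 tested members, beside 1057 of 6121 genes.

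Interneuron markers moved in the cortex as well. Of 6 tested interneuron genes 3 were lower in R6/2 (Vip, Gad1 and Npy), and their summed level was 634 to 828 CPM in NT and 354 to 399 CPM in R6/2 cortices. Pvalb, the marker of the fast-spiking class, had a log2 fold change of -0.68 ± 0.32 and did not pass the threshold (edgeR adjusted p = 0.282). Among 4 tested genes of the cortical excitatory neuron list, only Lamp5 was lower (log2 fold change -2.11). Slc17a7, Neurod2 and Neurod6 were not called (-0.54, -0.13 and -0.13). Of 3 tested markers of projection neurons of the striatal type, 2 (Ppp1r1b and Penk) were lower. None of 6 astrocyte, 6 oligodendrocyte, 4 microglial, 3 vascular and 1 choroid plexus markers tested was called. The part of these shifts in the channel results was not tested.

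In the striatum, 3 members were lower in R6/2 than in NT mice and none was higher: Kcnab1, Kcnk1 and Kcnk13. Kcnab1 encodes the Kvβ1 subunit, which gives Kv1 channels fast inactivation, and the other genes encode the K2P channels TWIK-1 and THIK-1, of which THIK-1 is best known from microglia. They were called among 21 members tested, where 3.84% of 7658 genes were called lower and 0.496% higher. By the same test 11 of 21 members had an unadjusted p under 0.05, beside 1353 of 7658 genes. Of the 21 members, 19 had a negative log2 fold change and their median was -0.56, beside 50.2% of all genes and a median of -0.002. In CPM, all R6/2 striata lay below all NT striata in 2 members and above them in 0, beside 4.28% and 1.82% of all genes. The calls of the 3 members need the term for the number of sets: without it, 0 members were called by the edgeR quasi-likelihood test (6 at an unadjusted p under 0.05), and DESeq2 with the term called 4.

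Kcnab1 (ENSMUSG00000027827) stood at 441, 496, 331 and 185 CPM in NT striatum and at 157, 228, 264 and 137 CPM in R6/2 striatum. The ranges overlapped, since NT 4, a library with 1 set, lay below R6/2 2 and R6/2 3. Within the libraries of each kind NT stood higher, with means of 258 against 147 CPM with 1 set and 469 against 246 CPM with 2 sets. The log2 fold change was -0.91 ± 0.18 (edgeR adjusted p = 0.0124), and the call was lost without NT 3, R6/2 2, R6/2 3 or R6/2 4 (-0.93 to -0.74).

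Kcnk13 (ENSMUSG00000045404) had 21, 45, 13 and 4 reads in the NT striata, or 26.5, 35.0, 20.5 and 19.5 CPM. The R6/2 striata had 3, 10, 15 and 3 reads, or 4.36, 10.4, 15.2 and 7.07 CPM, all below the NT values. The log2 fold change was -1.45 ± 0.30 (edgeR adjusted p = 0.0160), and the call was lost without NT 2, NT 3, R6/2 1 or R6/2 2 (-1.37 to -1.32). Most of its reads (107 of 144) were incomplete splice matches. The microglial markers stood at 370 to 686 CPM summed over 6 genes in NT and at 441 to 702 CPM in R6/2 striatum, and 0 of 6 were called. In the cortex Kcnk13 did not pass the filter on low counts, with 20 reads in the 4 NT and 10 reads in the 4 R6/2 samples.

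Kcnk1 (ENSMUSG00000033998), the deepest member, stood at 303, 292, 211 and 180.2 CPM in NT and at 124, 164, 219 and 103.7 CPM in R6/2 striatum. R6/2 3 lay above the lower NT libraries. Means within libraries of 1 set were 196 CPM in NT and 114 CPM in R6/2, and with 2 sets 297 and 191 CPM. The log2 fold change was -0.72 ± 0.16 (edgeR adjusted p = 0.0197), and the call was lost without NT 3, R6/2 1, R6/2 2 or R6/2 4 (-0.74 to -0.63).

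Other members were not called, and of those given here Kcnk2 and Kcnh1 lay nearest to the threshold. Kcnk2, the TREK-1 leak channel, had a log2 fold change of -1.03 ± 0.28 (edgeR adjusted p = 0.0594), with 58.3 to 136 CPM in NT and 30.1 to 48.8 CPM in R6/2 striatum and no overlap. Kcnh1 had -0.73 ± 0.22 (adjusted p = 0.0874). Kcna1, the clearest gene of the cortex, had -0.59 ± 0.21 in the striatum (adjusted p = 0.152), with 178, 117, 211 and 146 CPM in NT and 82.9, 111, 96.6 and 151 CPM in R6/2, so that the groups overlapped. Kcnv1 and Kcnc1 both had -0.49, with adjusted p of 0.227 and 0.36. Kcnab2, Kcnj9 and Kcnq1ot1 had intervals on either side of 0, from -0.68 to 0.50, from -0.64 to 1.03 and from -0.58 to 0.55.

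Markers of striatal projection neurons were lower as well. Of 11 such markers 9 were lower in R6/2 striatum, and their summed level was 10538 to 14246 CPM in NT and 2002 to 3430 CPM in R6/2 libraries. Of 6 oligodendrocyte markers 1 (Mobp) was lower. Of 5 tested genes of the interneuron list (Pvalb, Sst, Gad1, Gad2 and Npy), 0 passed. Spiny projection neurons are GABAergic themselves, so Gad1 and Gad2 do not mark interneurons alone in the striatum. None of 6 astrocyte, 4 tested vascular and 1 tested choroid plexus markers was called. The part of these marker shifts in the channel results was not tested.

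**Figure D2:**
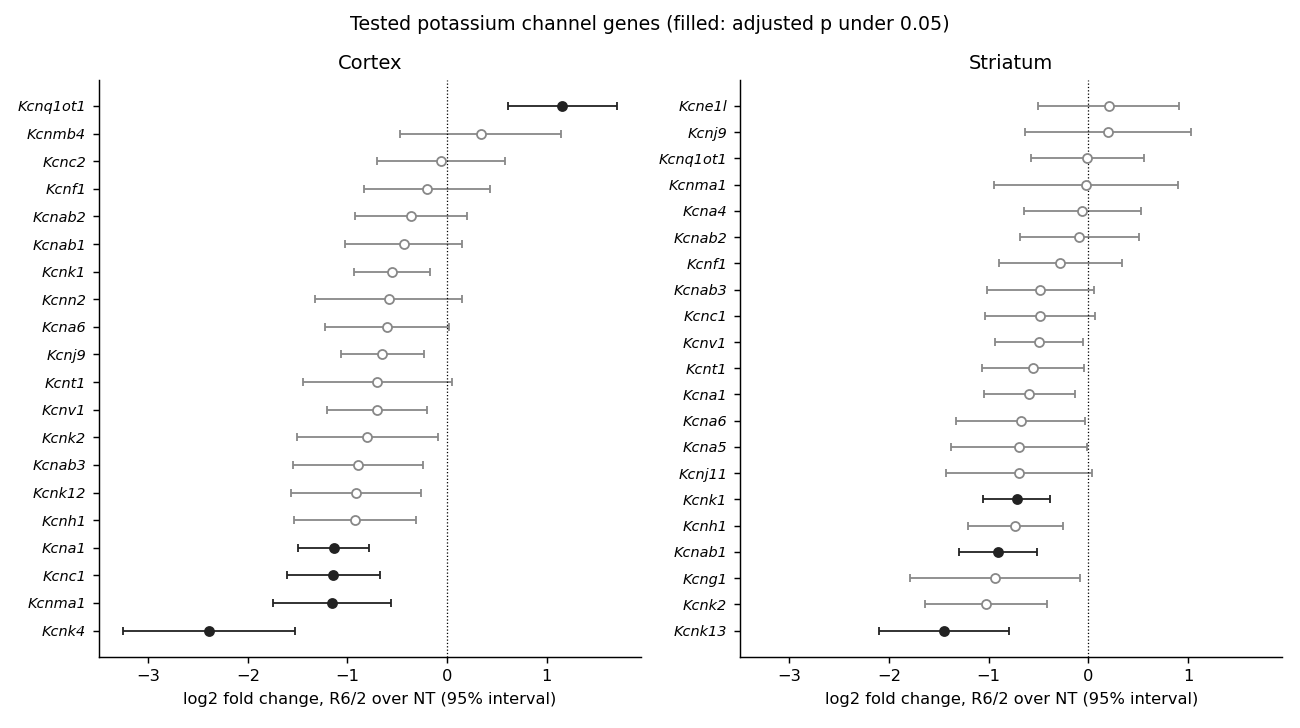
Log2 fold change of R6/2 over NT with its 95% interval for the 20 members tested in the cortex (left) and the 21 tested in the striatum (right), ordered by size, with filled points for an adjusted p under 0.05. In both regions most points lie left of 0, and the cortical scale runs from -2.39 for Kcnk4 to 1.15 for Kcnq1ot1.

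Whether the genotype difference itself differed between the regions was tested by an interaction over all 16 samples. None of 22 members passed, beside 0.0406% of 7390 genes (edgeR quasi-likelihood test), and 3 had an unadjusted p under 0.05, beside 429 of 7390 genes. These were Kcnq1ot1, Kcnma1 and Kcna1. The interaction term of Kcnq1ot1 was -1.15 ± 0.37 on the log2 scale (unadjusted p = 0.00537, edgeR adjusted p = 0.775). For Kcnma1 the striatum had 13.9 ± 9.75 CPM in NT and 16.8 ± 7.75 CPM in R6/2 mice (SD, n = 4), and the interaction term was 1.17 ± 0.52. A change of Kcna1, Kcnc1, Kcnma1, Kcnk4 or Kcnq1ot1 in 1 region alone was thus not shown.

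NT striatum and NT cortex differed in most of the tested members. Of 22 tested, 3 were higher in the striatum (Kcnab1, Kcnt1 and Kcnk2) and 12 were lower, beside 15.8% and 17.6% of 7390 genes. The higher genes encode Kvβ1, the sodium-activated channel Slack and the TREK-1 leak channel. The lower genes encode Kir3.3 (Kcnj9), Kvβ3 (Kcnab3), both tested Kv3 pores (Kcnc1 and Kcnc2), the silent subunits Kcnf1 and Kcnv1, the BK and SK2 pores (Kcnma1 and Kcnn2), EAG1 (Kcnh1) and the K2P channels THIK-2, TRAAK and TWIK-1 (Kcnk12, Kcnk4 and Kcnk1). Because the number of sets is a term estimated in the striatum, these log2 fold changes refer to libraries with 1 set. Isoforms averaged 1589 to 1840 nt in the striatal libraries with 1 set, beside 1821 to 2068 nt in the cortex. The longest transcript was 4206.5 nt at the median for the members tested here, beside 3134 nt for all genes tested. The part of library length in the region results was not tested. In CPM, all NT striata lay above all NT cortices in 2 members and below them in 8, beside 7.27% and 8.84% of all genes.

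Kcnab1 had the greatest striatal excess, from 32.5 to 82.9 CPM in NT cortex and from 185 to 496 CPM in NT striatum. The log2 fold change was 2.31 ± 0.26 (edgeR adjusted p = 5.89e-07). Kcnt1 stood at 19.3 to 43.9 CPM in NT cortex and at 34.2 to 117 CPM in NT striatum, with overlap (log2 fold change 1.47 ± 0.32, adjusted p = 0.00121). Its mean was 87.6 CPM in NT striata with 1 set and 37.9 CPM in those with 2 sets, the latter within the cortical range. Kcnk2 stood at 25.8 to 51.4 and at 58.3 to 136 CPM, without overlap (1.25 ± 0.35, adjusted p = 0.00798). Its striatal means were 97.3 CPM with 1 set and 77.1 CPM with 2 sets. Both genes rest mostly on ISM reads, 286 of 328 for Kcnt1 and 316 of 457 for Kcnk2.

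The strongest striatal deficits were those of Kcnk4, Kcnk12 and Kcnj9. Kcnk4 had 43 reads in the 4 NT cortices and 6 in the 4 NT striata (log2 fold change -4.67 ± 0.78, edgeR adjusted p = 7.13e-05). Kcnk12 stood at 34.1 to 56.0 CPM in NT cortex and at 5.04 to 9.74 CPM in NT striatum (-3.08 ± 0.49, adjusted p = 4.11e-05). Kcnj9, whose product joins other Kir3 subunits into channels opened by Gi-coupled receptors, stood at 111 to 155 CPM and at 9.74 to 35.3 CPM (-2.48 ± 0.37, adjusted p = 2.12e-05).

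The β subunits of Kv1 channels divided by region. Kcnab1 was higher in NT striatum, Kcnab3 was lower (-2.24 ± 0.40, edgeR adjusted p = 0.000141), and Kcnab2 was not called (-0.27, with an interval from -0.998 to 0.45). Their Kv1 partners were not called either: Kcna1 had -0.17 (from -0.61 to 0.27), Kcna4 0.54 (from -0.37 to 1.44) and Kcna6 -0.54 (from -1.27 to 0.18). Kcna5 was below the filter here, with 7 reads in NT cortex and 69 in NT striatum over 4 libraries each. Its means were 3.55 ± 4.13 and 20.4 ± 7.78 CPM (SD).

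The remaining lower genes had log2 fold changes between -1.95 and -0.60. They were -1.49 ± 0.29 for Kcnc1 and -1.90 ± 0.45 for Kcnc2, -1.54 ± 0.29 for Kcnv1 and -1.95 ± 0.40 for Kcnf1. The calcium-activated genes Kcnma1 and Kcnn2 gave -1.76 ± 0.43 and -1.44 ± 0.46, and Kcnh1 and Kcnk1 gave -1.02 ± 0.32 and -0.60 ± 0.19. Without the term for sets the calls of Kcnk1, Kcnh1, Kcnn2, Kcnc1, Kcnf1 and Kcnt1 were lost (-0.24, -0.47, -0.86, -0.94, -0.93 and 0.96). Those of Kcnk1, Kcnh1 and Kcnn2 were also lost without cortex NT 1 (-0.41, -0.70 and -1.27) or cortex R6/2 2 (-0.39, -0.82 and -1.23), those of Kcnk1 and Kcnh1 without striatum NT 3 (-0.63 and -0.83), those of Kcnk1, Kcnn2 and Kcnk2 without striatum NT 4 (-0.55, -1.32 and 0.92), and that of Kcnh1 without cortex NT 4 (-0.86). The Kcnk1 CPM ranges overlapped, at 263 to 366 in NT cortex and 180.2 to 303 in NT striatum. Its mean was 295 CPM in NT cortex, 196 CPM in NT striata with 1 set and 297 CPM in those with 2 sets.

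**Figure D3:**
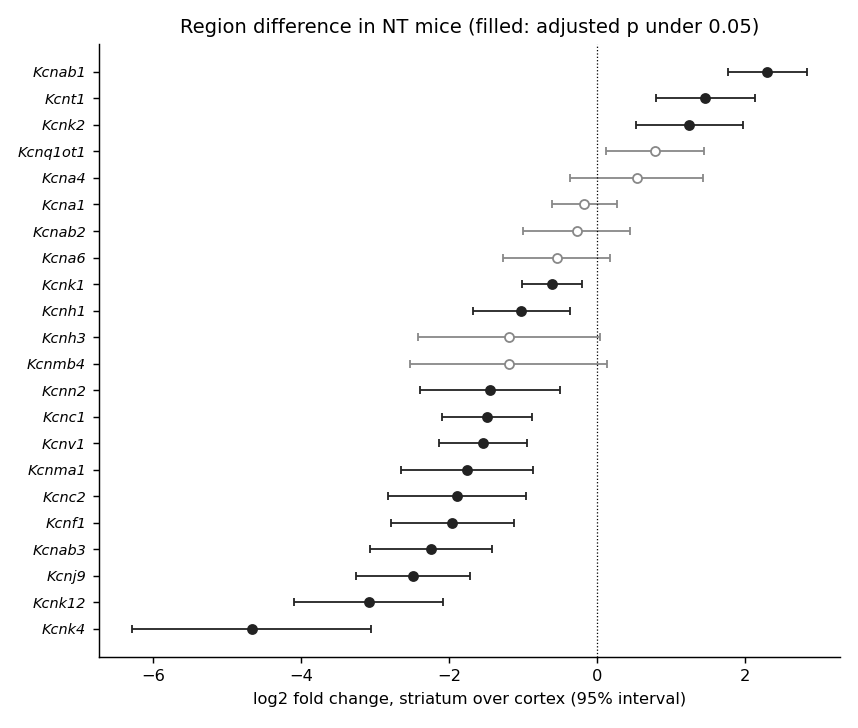
Log2 fold change of NT striatum over NT cortex with its 95% interval for the 22 members tested, ordered by size, with filled points for an adjusted p under 0.05. Kcnab1, Kcnt1 and Kcnk2 lie to the right of 0 with filled points, and 12 filled points lie to the left, down to -4.67 for Kcnk4.

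In the cortex the 4 lower genes came from 4 families (Kv1, Kv3, calcium or sodium activated, and K2P), and in the striatum the 3 lower genes were 2 of 3 tested K2P genes and 1 of 4 tested auxiliary Kv subunits. Of 12 K2P members in all, 5 had fewer than 20 reads. The 12 inward rectifiers had 1238 reads, of which Kcnj9 held 580, and only Kcnj9 was tested in the cortex. The 8 members of the Kv10 to Kv12 group (EAG, ERG and ELK channels) had 666 reads, and the 5 Kv7 members, which carry the M current, had 193.

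Genes that encode known partners of these channels were tested in the same fits. Of the partners of Kv and BK channels (Dpp6, Dpp10 and others), 4 were tested in each region and 0 were called between genotypes. None of 5 tested cortical and 7 tested striatal genes of the complex that holds Kv1 channels on axons (Cntnap2, Lgi1, Adam22 and others) was called. Pex5l, which encodes the HCN partner TRIP8b, was the sole gene of its list tested and was lower in R6/2 cortex (log2 fold change -1.0 ± 0.22, edgeR adjusted p = 0.0116). Between NT regions Dpp10 (-2.25 ± 0.40), Vapa (-0.56 ± 0.21), Adam23 (-1.11 ± 0.31) and Pex5l (-1.92 ± 0.27) were lower in the striatum. The sulfonylurea receptor genes of ATP-sensitive channels were below the filter throughout, at no more than 6.11 CPM summed.

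A large share of channel reads lay outside the gene counts. TALON places reads that overlap a gene but match none of the classes above in a genomic class, which was left out of gene counts here. Over the 82 members this class held 34.9% of reads, beside 7.81% over all known genes, and nearly all reads of the class were in single-exon models (99.6% for the members and 99.1% for all known genes). The share for the members ranged from 23.4 to 57.6% between libraries of the striatum and from 29.0 to 42.2% between those of the cortex. Known isoforms held 47.7% of member reads, beside 70.6% over all known genes.

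The genomic class was uneven among members. Of 66 members with at least 20 reads of any class, 21 had more than 50% of their reads in it and 10 more than 90%, while the median was 18.8%. Kcnd2, the Kv4.2 pore of dendritic A-type current, had 1197 genomic class reads and 55 others, and no read of a known isoform. Kcnq5, a Kv7 pore, had 834 and 32. Kcnj10, the Kir4.1 channel of astrocytes, had 187 and 9, and Kcna2 had 172 and 8. At the other end, Kcnk1 had 1.94% and Kcna1 3.67% of reads in the class. The longest annotated transcripts of the members were 3888 nt at the median, beside 2748 nt for all known genes with a read.

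**Figure D4:**
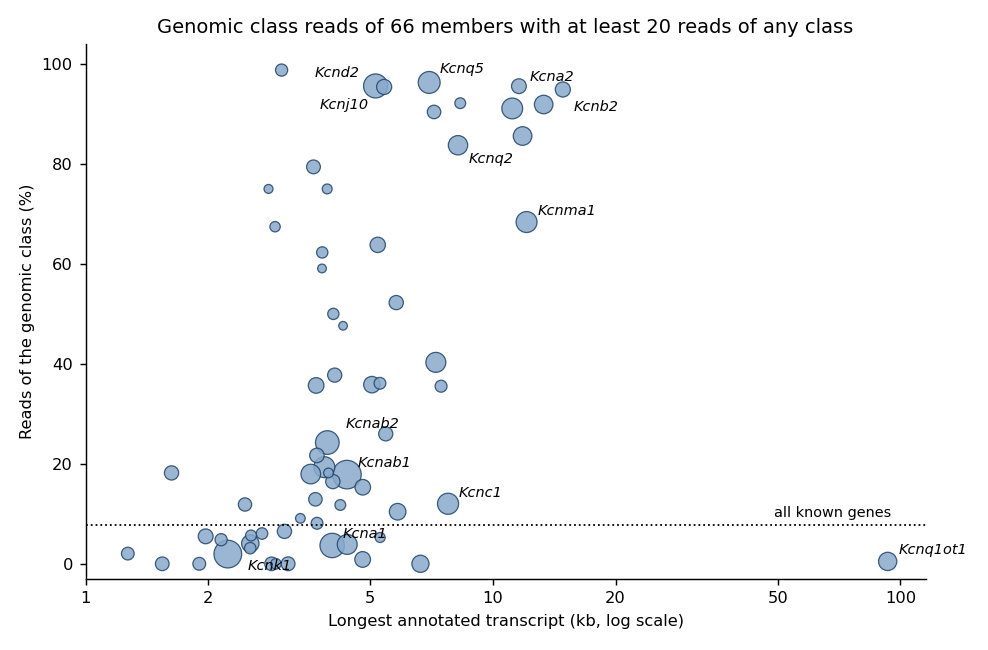
Share of a member's reads in the genomic class (%) against its longest annotated transcript (kb, log axis), for the 66 members with at least 20 reads of any class. Each circle is a member, with an area that grows with the square root of its reads, and the dotted line marks the 7.81% of all known genes. Kcnd2, Kcnq5 and Kcna2 lie above 90%, while Kcnk1 and Kcna1 lie below the line.

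With that class added to the counts, genes that otherwise fail the filter could be tested. The members named here were chosen after their values were seen. In the striatum 7 of 34 tested members were then lower in R6/2, and 0 were higher, beside 4.83% and 0.849% of 8718 genes, and the added ones were Kcnq5 (log2 fold change -1.04 ± 0.19, edgeR adjusted p = 0.00361), Kcnq3 (-1.08 ± 0.27, adjusted p = 0.0286), Kcnd2 (-0.82 ± 0.22, adjusted p = 0.0381) and Kcnk2 (-1.05 ± 0.23, adjusted p = 0.0137). Kcnab1, Kcnk13 and Kcnk1 were called there too. In the cortex 5 of 33 were lower and 1 was higher, beside 2.95% and 0.556% of 7011 genes, with Kcnh3 (-1.72 ± 0.39, adjusted p = 0.0124) and Kcnj9 (-0.72 ± 0.18, adjusted p = 0.0253) added and Kcnma1 lost. Between NT regions 7 of 38 members were higher in the striatum and 13 lower, beside 17.9% and 13.2% of 8447 genes. Kcnd2 (2.23 ± 0.25), Kcnq5 (1.25 ± 0.23) and Kcnq3 (1.39 ± 0.28) were among the higher ones, and Kcnj6 (-3.14 ± 0.65), a Kir3 subunit, and Kcnh7 (-1.26 ± 0.31), an ERG channel, among the lower ones. The region calls of Kcnh1 and Kcnn2 were lost (-0.26 and -0.76, edgeR adjusted p of 0.475 and 0.107), and the difference of Kcnma1 shrank to -0.77. The share of the class also varied between libraries with 1 set (8.71 to 12.2% of all reads in the striatum) and with 2 sets (5.30 to 6.07%). In the cortex it was 6.86 to 9.24%, and the part of this share in these values was not tested.

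Isoform usage, the share of each isoform among a gene's complete reads (known, NIC and NNC), was tested for members with at least 2 isoforms of 10 reads or more. No member was called: 0 of 9 in the cortex between genotypes, 0 of 14 in the striatum and 0 of 19 between NT regions, beside 0.36%, 0.451% and 0.39% of all genes tested (edgeR diffSpliceDGE with Simes p). At an unadjusted p under 0.05 the counts were 0, 1 and 1. In the cortex the smallest p values were those of Kcnj9 and Kcna1 (0.291 and 0.418). In the striatum they were those of Kcnab2 (unadjusted p = 0.000602 from diffSpliceDGE, adjusted p = 0.0890), Kcna6, Kcnk13, Kcnab3, Kcnk2 and Kcnn2, and the adjusted p of the latter 5 was at least 0.827. Between NT regions Kcnab3 had the smallest (adjusted p = 0.688).

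Kcnab2 had the clearest difference and therefore is shown in full. Its main isoform of 16 exons (ENSMUST00000160884) made up 735 of 803 complete reads. An annotated isoform of 15 exons (ENSMUST00000030768) lacks exon 3, a coding exon of 42 bases and so a whole number of codons, at chr4:152434782-152434823 (minus strand). The exon is given in capitals with 20 bases of exon 2 before it and 20 of exon 4 after it, followed by the junction in the 15-exon isoform.
Kcnab2 with exon 3: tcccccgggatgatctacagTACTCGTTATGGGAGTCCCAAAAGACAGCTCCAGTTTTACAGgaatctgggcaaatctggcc
Kcnab2 without exon 3: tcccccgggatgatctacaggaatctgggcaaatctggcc
The 15-exon isoform had 13 reads, all in R6/2 striatum: 6 in R6/2 2, 6 in R6/2 3, 1 in R6/2 4 and 0 in R6/2 1. The complete reads of the gene in this group were 313, which gives 4.15% (exact 95% interval 2.2 to 7.0%, counting error only). NT striatum had 0 of 287, which allows a share of up to 1.05%, and NT and R6/2 cortex had 0 of 103 and 0 of 100, which allow 2.9% and 3% (limits of 3 reads, against exact upper limits of 1.28%, 3.52% and 3.62%). Of the 13 reads, 11 were in the second set of counts of R6/2 2 and R6/2 3, while the second sets of NT 1 and NT 2 held 82 and 60 reads of the 16-exon isoform and 0 of the other. In the same edgeR fit an F test per gene gave an adjusted p of 0.0302, and a likelihood ratio fit gave 0.0119. These were the only 2 alternatives that called the gene, and the likelihood ratio fit was chosen after seeing the data.

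Kcna1 shows how isoform shares moved with the library. It has a 2-exon isoform of 4031 nt (ENSMUST00000055168, 785 reads) and a single-exon isoform of 3150 nt (ENSMUST00000203094, 501 reads). The 2-exon share was 54.3 to 64.6% in NT cortices and 41.3 to 60.7% in R6/2 cortices. In the striatum it was 68.2 to 80.1% in the 4 libraries with 2 sets and 23.3 to 47.8% in the 4 with 1 set, with NT and R6/2 mice in both ranges. The ranges by number of sets did not overlap, while those of the genotypes did in both regions.

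**Figure D5:**
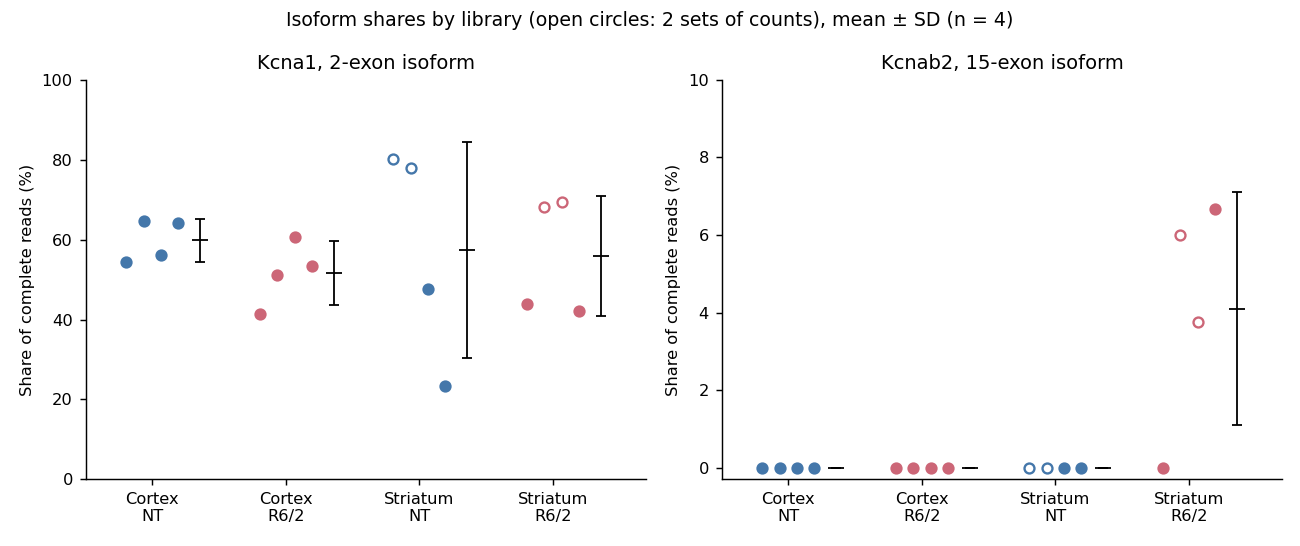
Share (%) of a gene's complete reads held by the 2-exon isoform of Kcna1 (left) and by the 15-exon isoform of Kcnab2 (right, axis to 10%) in each library, with mean ± SD (n = 4). Open circles are striatal libraries with 2 sets of counts. Kcna1 open circles lie between 68.2 and 80.1%, above all filled striatal circles, and Kcnab2 is above 0 only in 3 R6/2 striata.

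The channels of non-neuronal cells were sparse. Kcnj13, the Kir7.1 channel of choroid plexus epithelium, had 39.4 CPM (25 reads) in striatum NT 3 and at most 4.87 CPM in the other 3 NT striata. The same library had 9164 CPM of Ttr, the main transcript of choroid plexus, beside 34.0 to 312 CPM in the other NT striata. Among NT striata, Folr1, Otx2 and Aqp1 were also highest there (9.45, 3.15 and 1.57 CPM). Clic6 (14.2 CPM) lay below NT 1 (17.7 CPM) and Kl (4.72 CPM) below NT 4 (4.87 CPM). Kcne2, an auxiliary subunit that also marks choroid plexus, had 4 of its 11 reads in striatum NT 3. Kcnj13 also had 22 reads in NT and 42 in R6/2 cortex, or 12.2 ± 8.94 and 18.5 ± 6.26 CPM (SD, n = 4). Cortex R6/2 4 had 18.4 CPM of Kcnj13 with 18.4 CPM of Ttr. Kcnj8, the Kir6.1 channel of pericytes, had 26 reads in NT and 10 in R6/2 striatum, or 8.95 ± 4.96 and 2.56 ± 3.37 CPM. Kcnj10 had 9 reads in all outside the genomic class. None of these 4 genes passed the filter on gene counts in any comparison. With the genomic class added Kcnj10 was tested and not called, with log2 fold changes of -0.77 in the cortex and -0.10 in the striatum between genotypes and of -0.34 between NT regions.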

How the data were processed

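RNA from 16 samples was read by PacBio Iso-seq after exonuclease treatment, template-switching cDNA synthesis and 27 PCR cycles. The authors built circular consensus reads, required a poly(A) tail, aligned them to mm10 (minimap2 2.17-r941 per the labels), corrected them with TranscriptClean and assigned them with TALON. They deposited unnormalized read counts per isoform, before TALON's filter, in 20 files. The labels state that 4 striatal samples hold raw data of 2 replicates. What the 2 sets of counts are is not given, and they were summed.

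Gene counts were tested with edgeR 4.0.16 in R 4.3.3 (TMM, filterByExpr, quasi-likelihood test, Benjamini-Hochberg over all genes tested, threshold 0.05). Isoform usage was tested with diffSpliceDGE on isoforms with at least 10 reads. Library size was the sum of gene reads (202664 to 1349108). Regions were fitted alone for genotype, and 16 samples together for region and interaction, where all samples were taken as independent, although both tissues were dissected from the left hemisphere and mice can be shared between regions. That a number marks 1 mouse is not stated. Fold changes come from each comparison's own fit, and CPM from 1 scaling of all samples. No pair of samples of a group agreed within sampling noise (chi-square per degree of freedom at least 2.30 over genes). The 2 sets of counts of the same sample gave 2.17 to 2.63, so this check cannot show that all samples are distinct. P-values set a group difference against the spread between these samples, and edgeR shares its estimates of that spread in part across genes. Scripts were tested on simulated data.

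Named were members with an adjusted p under 0.05, the 10 with most reads, up to 6 per isoform comparison and Kcnj13, Kcne2, Kcnj8 and Kcnj10. Members, gene lists and alternatives were chosen with earlier results of these data known. Positions, exons and sequences come from GENCODE M21 (mm10). Alternatives were DESeq2 1.42.0, upper-quartile scaling, other filters, other read classes, the first set only, no term for sets, 1 fit of all samples, a replicate block and leaving out each sample. Some items are not reported here.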

Additional observations from a re-analysis of the deposited data

Results flagged for a closer look

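Among the named members, 7 groups of 4 samples held a sample far from the others (past Dixon's 95% critical value). Chance flags about 1 in 20 groups, and 92 groups were examined. Kcnk1 reached 366 CPM in cortex NT 3, with the next NT cortex at 279 CPM. Kcnab2 stood at 27.5 CPM in cortex R6/2 1, with the next R6/2 cortex at 60.9 CPM. Kcnj13 stood at 39.4 CPM in striatum NT 3, the library with most Ttr. The other 4 rest on 1 or 2 reads: Kcne2 at 1.93 CPM in cortex NT 4 and 2.77 CPM in cortex R6/2 3, and Kcnj10 at 4.07 CPM in cortex R6/2 2 and 1.45 CPM in striatum R6/2 1, each with the other 3 samples of the group at 0.

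Signal also appeared outside the gene counts. Kcng3, Kcnj2 and Kcnrg had 12, 27 and 35 reads over the 16 samples, all of the genomic class, and so are not among the 82 members.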

How the results depend on the processing

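The numbers of called members (cortex 5, striatum 3, region 15, interaction 0, isoform usage 0, 0 and 0) moved by more than 1.5 times as follows. In the cortex 2 were called without ISM isoforms, and leaving out 1 sample gave 3 (without R6/2 2) to 8 (without NT 1). In the striatum 5 were called without a filter on low counts and 7 with the genomic class. From the first set of counts 0 were called, and 0 without the term for sets. Leaving out 1 sample gave 0 (without R6/2 2) to 4, with 1 without NT 3, R6/2 1 or R6/2 4. The 1 called without NT 3 was another member, since Kcnab1, Kcnk13 and Kcnk1 all lost their calls there. Between regions 9 were called without ISM isoforms, 7 from the first set and 9 without the term for sets, and leaving out 1 sample gave 13 to 17. Isoform usage in the striatum gave 1 under the F test and 1 under the likelihood ratio fit, which was chosen after seeing the data. No fold change of a called member turned its sign. Kcna1, Kcnk4 and Kcnc1 were called in the cortex under every alternative that tested them, no striatal call was, and 8 of 15 region calls were. The causes were not tested.

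Samples share replicate numbers across groups. The correlation of the deviations of same-numbered samples from their group means was 0.40, 0.19, 0.38 and -0.04 between the regions of R6/2 mice 1 to 4 and -0.23, 0.22, 0.12 and -0.17 in NT mice, and 5 of these 8 pairs were above the best pairing with another number. Between genotypes it was -0.07 to 0.17 in the cortex and -0.57 to 0.62 in the striatum. The striatal value was positive for numbers 2 and 4, whose samples had equal numbers of sets, and negative for 1 and 3, whose samples did not. Deviations were not adjusted for the number of sets, so this check cannot decide on pairing. Not every pair correlated, and the numbers were not taken as pairs. With a replicate block, 5, 2, 13 and 0 members were called in the cortex, the striatum, between regions and for the interaction, and 0 in each isoform comparison. Kcnk1 lost its call in the striatum, and Kcnk1 and Kcnh1 lost theirs between regions. Depth is a further limit: 27 of 82 members could be tested, and a member read in a few molecules per library could change without being called.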
